A study of Homo sapiens with 16 samples.

Results

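Collagen chain genes are the rows of the expression table whose symbol has the form COL, a type number, A and a chain number. There were 39 such rows among 19898 genes, and 33 of them passed the filter on low values, a normalised count of 10 or more in at least 4 libraries. RNA was sequenced from SH-SY5Y, a human neuroblastoma line, differentiated for 15 days towards a dopamine-like neuronal state. There were 4 groups of 4 libraries. They were MPP-treated 3D, untreated 3D, MPP-treated 2D and untreated 2D, where 3D is growth in a silk-collagen scaffold and 2D is growth on flat dishes. MPP, 1-methyl-4-phenylpyridinium, blocks complex I in mitochondria; it was given at 1 mM for 48 h, starting on day 13. All 16 libraries come from this 1 cell line. Whether the 4 libraries of a group were separate cultures is not stated in the labels, and the p-values below cover the spread between these samples, which may be technical. The 2D cells were detached with Accutase and the 3D scaffolds were collected whole, so culture and handling cannot be told apart. The values count messenger RNA of the cells, not the collagen protein of the scaffold. The comparisons show the RNA level of each chain in each culture with and without MPP.

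Every collagen chain carries stretches of Gly-X-Y triplets, in which glycine leads each triplet, and 3 chains wind into a triple helix. Fibrillar collagens form cross-striated fibrils, type IV collagens form the sheet of basement membranes, and type VI collagens form beaded filaments around cells. FACIT collagens (fibril-associated collagens with interrupted triple helices) sit on the surface of fibrils, and transmembrane collagens span the plasma membrane with their helix outside the cell. In the nervous system, collagens are found mainly in basement membranes, at the nerve sheath and at synapses.

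The repeat can be read in the coding sequences. The 6 stretches below are the first 18 codons of the longest Gly-X-Y run of 6 chains that carry the results, from GENCODE release 29 transcripts, with glycine codons in capitals. They are shown because the chains share this repeat and differ in how much of it they hold.
COL17A1 (codons 644 to 661): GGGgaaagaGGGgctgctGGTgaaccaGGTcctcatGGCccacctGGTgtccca
COL23A1 (codons 121 to 138): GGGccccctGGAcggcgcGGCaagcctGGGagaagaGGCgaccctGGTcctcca
COL5A1 (codons 559 to 576): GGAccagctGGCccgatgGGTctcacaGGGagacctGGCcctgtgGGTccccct
COL27A1 (codons 688 to 705): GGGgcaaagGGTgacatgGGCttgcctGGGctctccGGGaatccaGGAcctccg
COL20A1 (codons 1079 to 1096): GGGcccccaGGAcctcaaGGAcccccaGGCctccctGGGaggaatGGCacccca
COL6A2 (codons 256 to 273): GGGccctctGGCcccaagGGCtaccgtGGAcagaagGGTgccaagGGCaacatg
In COL5A1 the longest run held 338 triplets, near the 337 to 343 of COL1A1, COL1A2, COL2A1, COL3A1, COL5A2, COL5A3 and COL11A1, the other fibrillar chains of classical length. COL27A1, a fibrillar chain with a shorter helix, had a longest run of 217 triplets. The transmembrane chains had short runs broken by gaps, of at most 55 triplets in COL17A1, 43 in COL23A1 and 44 in COL13A1. COL6A1 and COL6A2 had 87 triplets in their longest run and COL20A1 had 40.

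Promoter windows, 250 bases before and 50 after the annotated start (RefSeq, GRCh38.p14), were given for 29 of the 39 chains. The windows below are those of COL17A1 and COL23A1, the transmembrane chains that were highest in the scaffold, and of COL4A2. The RefSeq start of COL4A2 lies 127 bases from that of COL4A1, on the other strand of chromosome 13. In GENCODE release 29 these genes overlap there. Capitals mark TATAAA in COL17A1 and the letters GCGTG, a core of hypoxia-response elements, in COL23A1 and COL4A2.
COL17A1 (chr10:104085831-104086130, minus strand): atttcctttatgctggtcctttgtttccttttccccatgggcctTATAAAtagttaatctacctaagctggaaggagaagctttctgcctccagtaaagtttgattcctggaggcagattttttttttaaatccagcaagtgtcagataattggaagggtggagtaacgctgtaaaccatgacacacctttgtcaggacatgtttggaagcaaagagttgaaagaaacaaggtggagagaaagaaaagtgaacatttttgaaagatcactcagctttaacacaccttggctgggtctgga
COL23A1 (chr5:178590344-178590643, minus strand): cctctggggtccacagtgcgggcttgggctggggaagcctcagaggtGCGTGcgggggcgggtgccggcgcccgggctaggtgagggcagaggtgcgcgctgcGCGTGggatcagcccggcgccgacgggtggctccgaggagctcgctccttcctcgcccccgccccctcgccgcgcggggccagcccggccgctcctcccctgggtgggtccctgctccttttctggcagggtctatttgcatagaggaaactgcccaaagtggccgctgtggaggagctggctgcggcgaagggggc
COL4A2 (chr13:110307034-110307333, plus strand): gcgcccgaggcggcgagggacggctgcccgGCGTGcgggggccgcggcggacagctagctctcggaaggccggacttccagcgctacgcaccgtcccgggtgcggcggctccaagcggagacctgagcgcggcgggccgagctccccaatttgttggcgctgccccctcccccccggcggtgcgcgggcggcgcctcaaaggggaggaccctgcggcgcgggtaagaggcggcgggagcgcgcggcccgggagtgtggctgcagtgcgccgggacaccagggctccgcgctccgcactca
The COL4A1 window, read on the other strand, shares 226 bases with that of COL4A2. ACGTG or GCGTG on either strand was found in 13 of 29 collagen windows and in 48.4% of all 35116 windows. TATAAA was found in 5 of 29 and in 11.5% of all windows, and the GC box GGGCGG in 18 of 29 and in 45.0%. For the chains only the first listed window of each was counted, whereas the shares over all windows can take in several windows of the same gene. The 3 motifs were searched on both strands, and a match or its absence describes only these letters.

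The total of collagen reads was highest in the untreated scaffold. Collagen chains took 0.186% ± 0.0120 of the normalised reads in MPP-treated 3D, 0.258% ± 0.0294 in untreated 3D, 0.188% ± 0.00970 in MPP-treated 2D and 0.155% ± 0.00109 in untreated 2D (SD, n = 4 each). The untreated 3D libraries spanned 0.226% to 0.297%, above all 12 others. In a bulk sample, more cells that make a transcript and more of it per cell cannot be told apart.

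**Figure D1:**
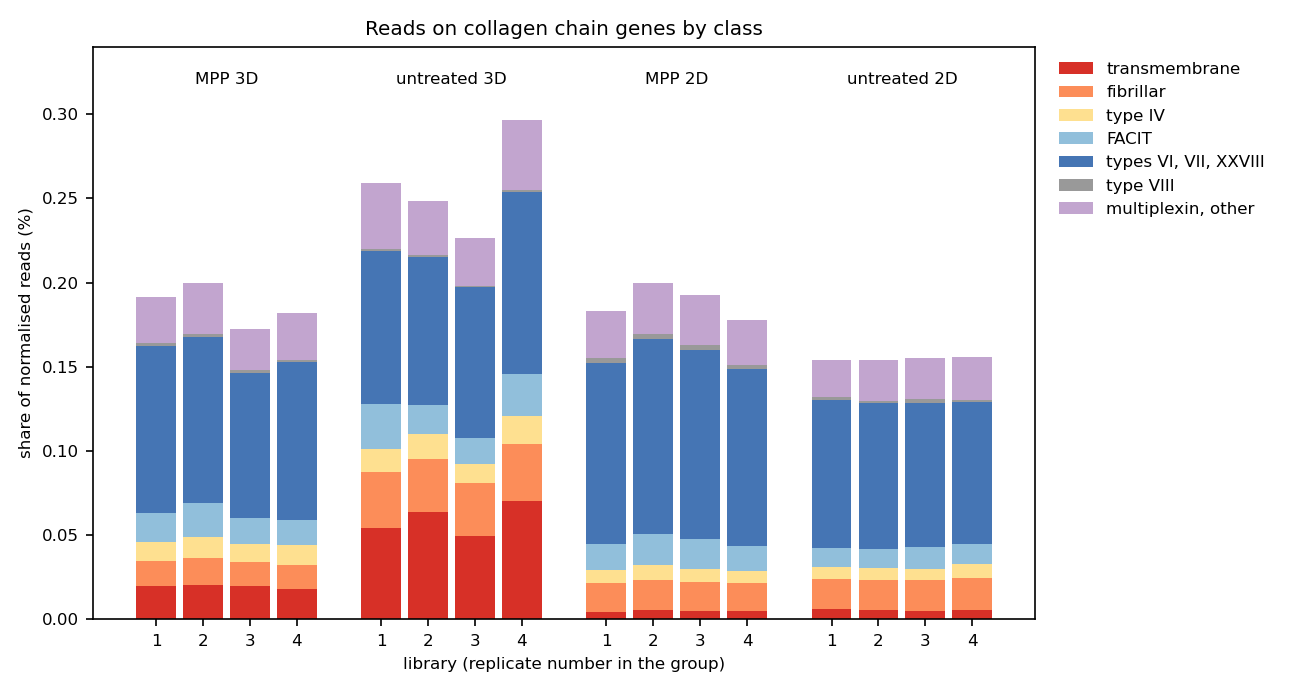
Share of each library's normalised reads on collagen chain genes (vertical axis, percent), stacked by class, for the 4 libraries (horizontal axis) of each group. The transmembrane segment, mostly COL17A1, averaged 0.0195% of reads in MPP-treated 3D, 0.0593% in untreated 3D, 0.00495% in MPP-treated 2D and 0.00528% in untreated 2D.

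COL6A2 and COL6A1, 2 chains of the type VI heterotrimer, ranked high everywhere when counts were divided by merged exon length. Per kilobase, COL6A2 stood at 4828 normalised counts in MPP-treated 3D, 5237 in untreated 3D, 5812 in MPP-treated 2D and 4908 in untreated 2D, rank 1 in each group. COL17A1 stood at 984 (rank 4), 3331 (rank 2), 222 (rank 10) and 262 (rank 9) per kilobase in the same 4 groups. It made up 21.3% ± 1.95 of all collagen reads in untreated 3D and 2.78% ± 0.276 in untreated 2D (SD, n = 4 each). In untreated 3D its libraries spanned 2788 to 3926 per kilobase, below those of COL6A2, at 4826 to 6067, and above those of COL6A1, at 1935 to 2310, with no overlap. COL18A1, the basement membrane chain that yields endostatin, and COL9A3, a chain of type IX, came next there, at 1653 and 1005 per kilobase.

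The lowest chains were near the limit of detection. COL24A1, COL4A3, COL12A1, COL10A1, COL15A1 and COL4A6 were not tested. COL4A6, a type IV chain, had 0 reads in all 8 scaffold libraries, which allows up to 0.683 normalised counts on average in MPP-treated 3D and 0.961 in untreated 3D (3 reads over the group, counting error only). Its 2D means were 1.88 ± 1.91 with MPP and 4.41 ± 4.28 without. COL15A1, a relative of COL18A1, had 0 to 7.36 in MPP-treated 3D and 35.9, 25.8, 47.7 and 8.95 in the 4 untreated 3D libraries. In 2D its libraries held 1.76 to 3.23 with MPP and 0 to 6.17 without. COL4A5, COL6A5, COL8A1, COL11A2 and COL25A1 were not analysed here.

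Some partner chains stood at very unlike levels. Type I collagen normally joins 2 COL1A1 chains with 1 COL1A2 chain, but the per-kilobase ratio of COL1A1 to COL1A2 averaged 47.7 ± 49.3 in MPP-treated 3D, 225 ± 192 in untreated 3D, 484 ± 400.3 in MPP-treated 2D and 157 ± 45.0 in untreated 2D (SD, n = 4 each). COL1A2 itself averaged at most 48.4 counts in any group, and 6.61 in MPP-treated 2D. Its libraries held 4, 9, 12 and 2 reads there, so the ratio of that group rests on very few reads. COL6A3, the third chain of type VI, stood at 29.9 per kilobase in MPP-treated 3D, 19.1 in untreated 3D, 68.3 in MPP-treated 2D and 49.4 in untreated 2D. That was the lowest of the 3 chains in each group. The per-kilobase ratio of COL6A1 to COL6A2 moved by less than its spread between most groups, at 0.392 ± 0.0126 in MPP-treated 3D, 0.398 ± 0.0268 in untreated 3D, 0.371 ± 0.0200 in MPP-treated 2D and 0.385 ± 0.0285 in untreated 2D (SD, n = 4 each).

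Other ratios differed more between the cultures. COL4A1 and COL4A2, whose promoter windows overlap as printed above, had a per-kilobase ratio of 0.191 ± 0.0215 in MPP-treated 3D, 0.211 ± 0.0325 in untreated 3D, 0.292 ± 0.0196 in MPP-treated 2D and 0.283 ± 0.0338 in untreated 2D. The highest scaffold library, at 0.244, lay below the lowest dish library, at 0.251. The ratio of COL5A1 to COL5A2, the main partners in type V collagen, was 6.0 ± 1.4 in MPP-treated 3D, 16.4 ± 1.17 in untreated 3D, 6.61 ± 0.952 in MPP-treated 2D and 8.66 ± 1.02 in untreated 2D. Merged exon length takes in every annotated isoform, so levels per kilobase are understated for genes with long isoforms that the cells do not use.

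Without MPP, 14 of the 33 tested collagen chains rose in the scaffold relative to the dish and 5 fell (limma, Benjamini-Hochberg adjusted p under 0.05), where 46.1% of all 16984 tested genes were called, 23.2% higher and 23.0% lower. The median log2 change was 0.22 over the 33 chains and 0.010 over all tested genes. All 3 tested transmembrane chains rose, 4 of 9 fibrillar chains, 2 of 3 type IV chains and 3 of 9 FACIT chains, while 3 FACIT chains fell. Markers of noradrenergic neuroblasts, the state from which the line derives, were abundant in all groups, and 7 of 9 were lower and 1 higher in untreated 3D than in untreated 2D. MPP-treated 3D libraries summed to 193948–245365 normalised counts over these 9 genes, untreated 3D libraries to 227072–257768, MPP-treated 2D libraries to 311201–332174 and untreated 2D libraries to 311363–343999. Their part in the collagen changes was not tested.

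**Figure D2:**
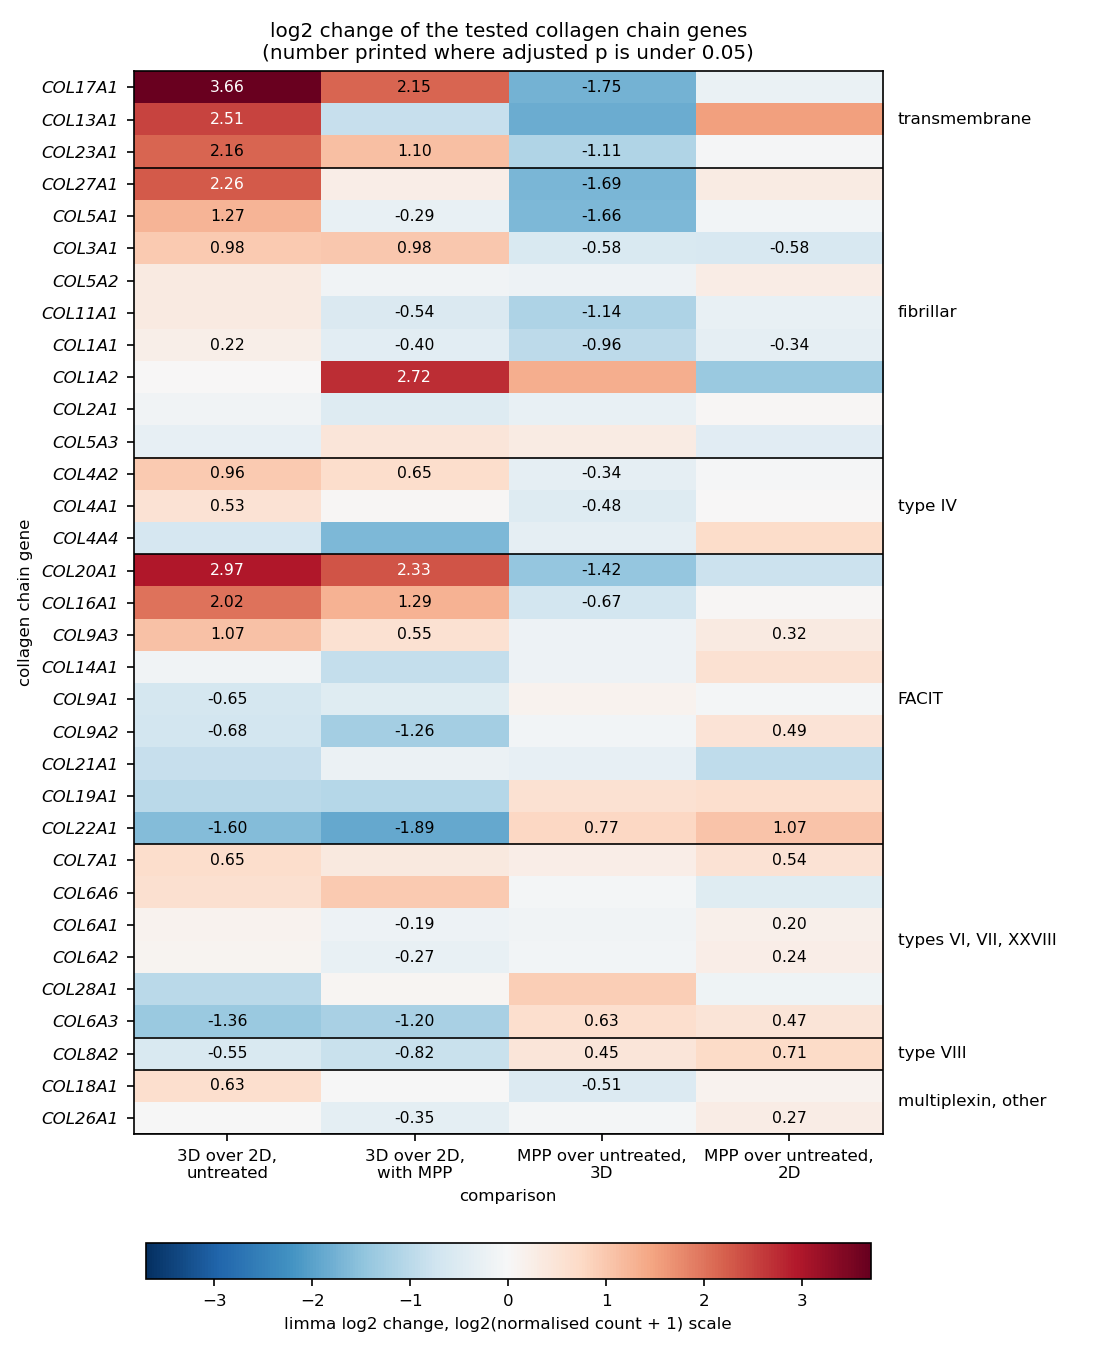
Log2 change (colour) of the 33 tested collagen chain genes (rows, grouped by class) in the 4 comparisons (columns). Numbers are printed where the adjusted p was under 0.05; the transmembrane chains at the top rose with the untreated scaffold, by log2 3.66 for COL17A1, and most chains that rose there were lower with MPP in 3D.

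COL17A1 (Entrez gene 1308, chr10:104031286-104085957, GRCh38, minus strand) encodes the transmembrane collagen of hemidesmosomes, the anchors that hold epithelial cells to the basement membrane. It had 6080.5, 6103, 6033 and 5438 normalised counts in the 4 MPP-treated 3D libraries and 18309, 21426, 16754 and 23596 in untreated 3D. On the dish it had 1143, 1433, 1374 and 1384 with MPP and 1783, 1529.6, 1454 and 1540.1 without. All scaffold libraries lay above all dish libraries, and all untreated 3D libraries above all MPP-treated 3D ones. Untreated 3D was 12.7-fold above untreated 2D (limma, log2 3.66, SE 0.095, adjusted p = 1.96e-18).

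COL23A1 (Entrez gene 91522, chr5:178237618-178590555, minus strand), a transmembrane collagen that binds integrin, showed the same order of group means. Its counts were 737, 823, 711 and 688 in MPP-treated 3D and 1462, 1578, 1326 and 2096 in untreated 3D. They were 317, 444, 325 and 304 in MPP-treated 2D and 363, 384, 338 and 338 in untreated 2D. The dish groups overlapped and the scaffold groups did not (3D against 2D, untreated: limma, log2 2.16, SE 0.13, adjusted p = 1.20e-11). COL13A1, a transmembrane collagen of the neuromuscular junction, was scarce, at 20.2 ± 6.28 in untreated 3D and 4.25 ± 5.19 in untreated 2D (limma, log2 2.51, SE 0.73, adjusted p = 0.00766).

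**Figure D3:**
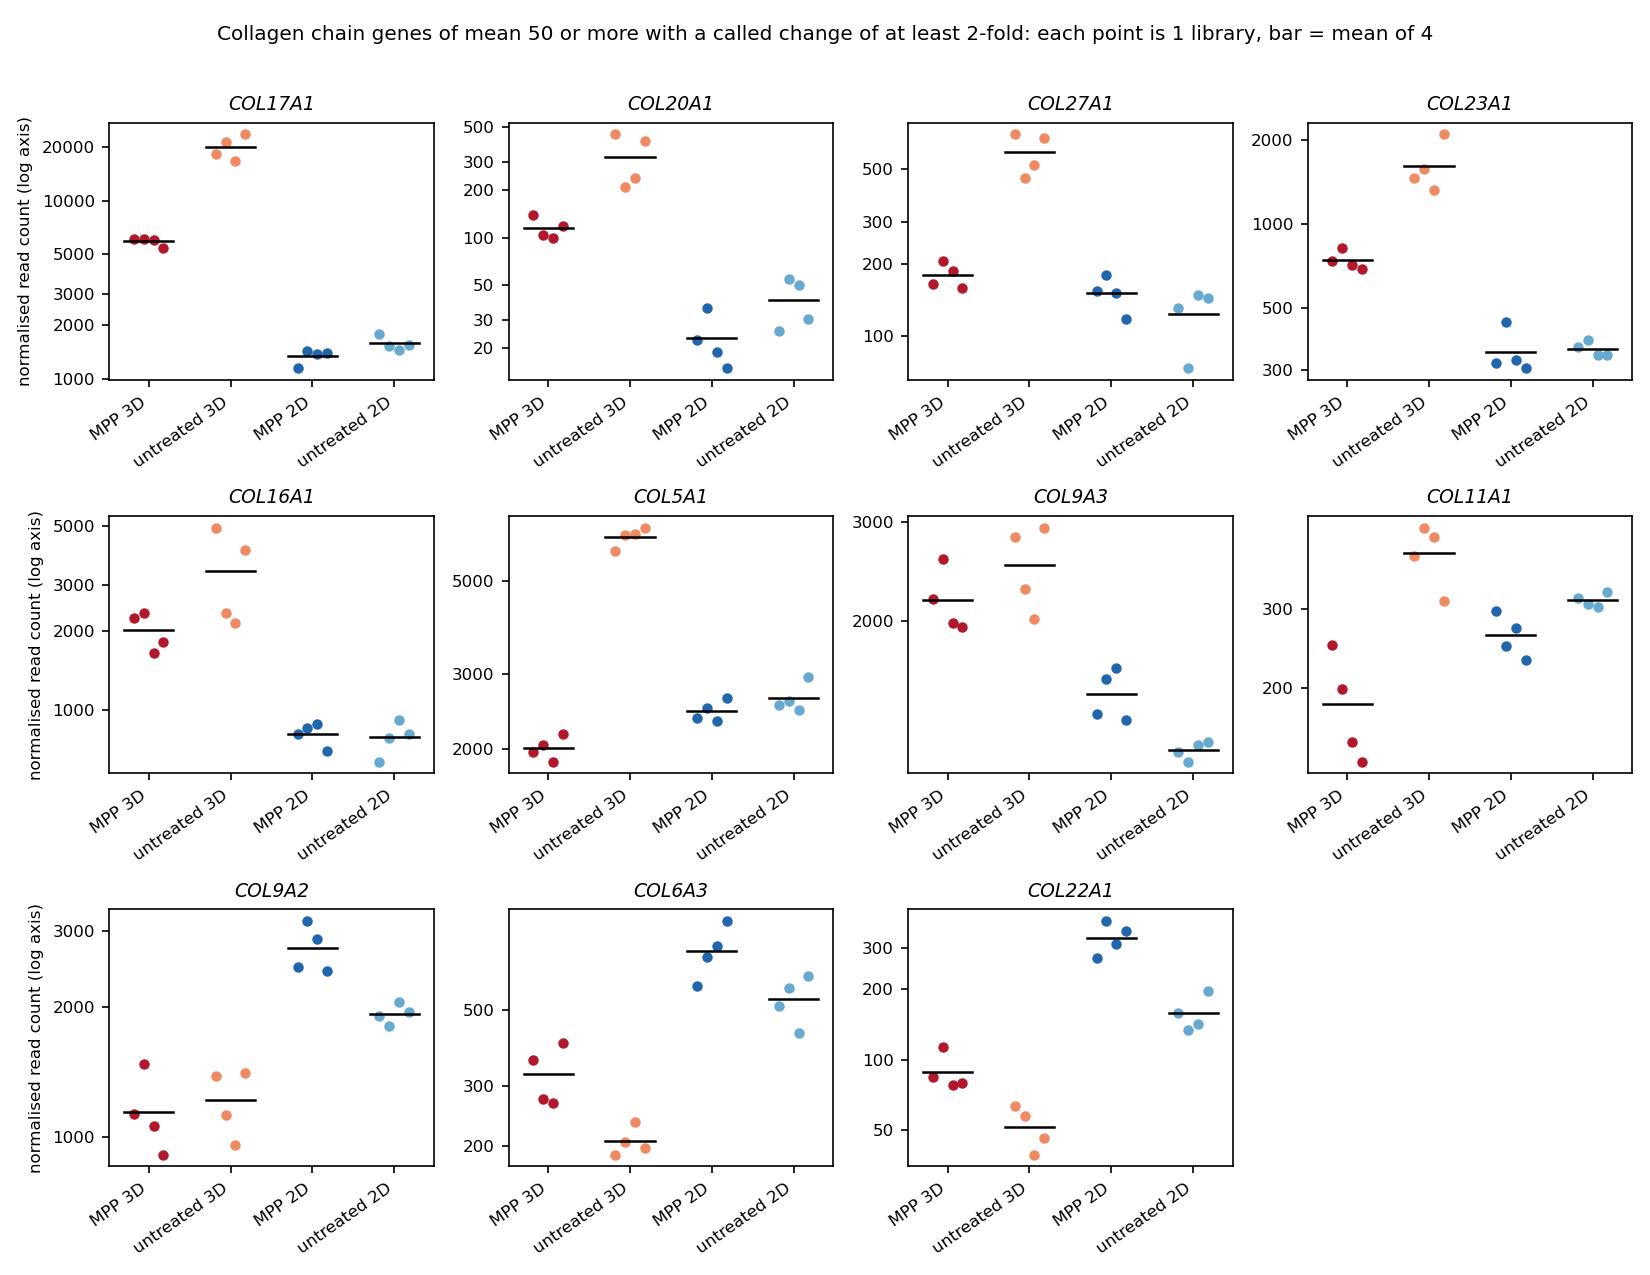
Normalised read count (vertical axis, log scale) of the 11 chains with a mean of 50 or more and a called change of at least 2-fold, in MPP-treated 3D, untreated 3D, MPP-treated 2D and untreated 2D. Each point is 1 library and the bar is the mean of 4. By mean, untreated 3D stands highest for COL17A1, COL20A1, COL27A1, COL23A1, COL5A1, COL16A1, COL9A3 and COL11A1, and lowest for COL6A3 and COL22A1.

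Of the fibrillar chains, COL5A1 and COL27A1 rose most. COL5A1 (Entrez gene 1289, chr9:134641774-134844843, plus strand) encodes a chain of type V collagen, which starts fibrils and limits their width. Its counts were 1968, 2047, 1866 and 2164 in MPP-treated 3D, 5877, 6421, 6447 and 6672 in untreated 3D, 2363, 2494, 2326 and 2635 in MPP-treated 2D and 2544, 2592, 2464 and 2957 in untreated 2D. Only the untreated scaffold stood high, with all 4 libraries above the 12 others (untreated 3D against 2D: limma, log2 1.27, SE 0.072, adjusted p = 3.24e-12). COL27A1 (Entrez gene 85301, chr9:114155560-114312511, plus strand), known from cartilage, had 165, 204, 187 and 158 in MPP-treated 3D, 696, 457, 516 and 674 in untreated 3D, 154, 179.7, 150.3 and 118 in MPP-treated 2D and 130.1, 73.0, 148 and 144 in untreated 2D. Untreated 3D again stood apart from the other 3 groups, and both MPP-treated groups overlapped (untreated: limma, log2 2.26, SE 0.21, adjusted p = 8.03e-09).

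COL3A1, the chain of type III collagen in elastic tissues, averaged 775 ± 77.6 in untreated 3D and 392 ± 31.4 in untreated 2D (limma, log2 0.98, SE 0.14, adjusted p = 5.40e-06). COL1A1 was only slightly higher, at log2 0.22 (limma, adjusted p = 0.0309), and lost its call when any 1 of 5 libraries was left out, at an adjusted p of up to 0.133. COL11A1 (Entrez gene 1301, chr1:102876467-103108872, minus strand), a chain of the thin type XI fibrils, had 249, 199, 152 and 137 in MPP-treated 3D and 394, 456, 435 and 313 in untreated 3D. It had 297, 248, 272 and 231 in MPP-treated 2D and 318, 308, 303 and 327 in untreated 2D. The untreated groups overlapped, and the change was not called (limma, log2 0.33, SE 0.17, adjusted p = 0.110). COL2A1, COL5A2 and COL5A3 were not called either, with log2 changes of -0.14, 0.34 and -0.29, and COL1A2 stood at log2 0.011.

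FACIT chains moved both ways. COL20A1 (Entrez gene 57642, chr20:63293186-63334851, plus strand), a little studied FACIT, had 140.0, 104, 99.1 and 119 in MPP-treated 3D, 449, 209, 239 and 406 in untreated 3D, 22.6, 35.9, 18.9 and 15.0 in MPP-treated 2D and 25.8, 54.5, 50.3 and 30.7 in untreated 2D. The scaffold groups lay above both dish groups (untreated: limma, log2 2.97, SE 0.31, adjusted p = 5.56e-08). COL16A1 (Entrez gene 1307, chr1:31652247-31704319, minus strand), a FACIT of several tissues, had 2235, 2346, 1649 and 1825 in MPP-treated 3D, 4939, 2351, 2154 and 4073 in untreated 3D, 813, 854, 889.7 and 703 in MPP-treated 2D and 640.2, 784, 921 and 814 in untreated 2D. All scaffold libraries lay above all dish libraries (untreated: limma, log2 2.02, SE 0.19, adjusted p = 1.46e-08).

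Within untreated 3D, COL16A1 and COL20A1 split into libraries 1 and 4, which were high, and 2 and 3, which were low. COL9A3, COL18A1 and COL7A1 split the same way. Over all genes, the median deviation from the gene's mean in the fifth of genes richest in GC, minus that in the fifth poorest in GC, was 0.17 and 0.36 on the log2 scale in libraries 1 and 4, against -0.11 and -0.30 in 2 and 3. Of the 33 tested chains, 19 lie in the fifth richest in GC, and the 33 had a median exon GC content of 60.3%, against 49.1% over all tested genes. After a correction for GC content the counts of called chains in the untreated scaffold were 15 higher and 5 lower. Over all tested genes the corrected fit called 4189 higher and 4160 lower, against 3932 and 3898 without the correction.

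The chains of type IX, a FACIT heterotrimer on cartilage fibrils, did not move as one. COL9A3 (Entrez gene 1299, chr20:62816244-62841159, plus strand) had 2184, 2579, 1982 and 1947 in MPP-treated 3D and 2819.8, 2273, 2017 and 2926 in untreated 3D. It had 1366, 1576, 1649 and 1334 in MPP-treated 2D and 1170.1, 1124, 1201 and 1219 in untreated 2D. It was higher in the scaffold (untreated: limma, log2 1.07, SE 0.11, adjusted p = 5.23e-08). Its exons overlap those of TCFL5, on the other strand, by 45 bases. COL9A2 (Entrez gene 1298, chr1:40300487-40317813, minus strand) had 1134, 1475, 1065 and 912 in MPP-treated 3D and 1386, 1125, 959 and 1405 in untreated 3D. It had 2466, 3158, 2873 and 2415 in MPP-treated 2D and 1910.2, 1804, 2053 and 1948 in untreated 2D. Each scaffold library was below each dish library (untreated: limma, log2 -0.68, SE 0.13, adjusted p = 1.91e-04). COL9A1 fell too, by 0.65 on the log2 scale (limma, adjusted p = 0.0216), a call lost without untreated 2D replicate 4 (adjusted p = 0.0805) or untreated 3D replicate 1 (0.0543) or 2 (0.0917).

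COL22A1 (Entrez gene 169044, chr8:138588235-138914006, minus strand), a FACIT of tissue junctions such as that of muscle and tendon, was the most reduced chain. It had 84.0, 113, 77.8 and 79.1 in MPP-treated 3D and 63.3, 57.5, 39.3 and 46.2 in untreated 3D. The dish held 269.7, 389.9, 311 and 353 with MPP and 158, 134, 142 and 196 without. No 2 of the 4 groups overlapped (untreated 3D against 2D: limma, log2 -1.60, SE 0.20, adjusted p = 1.12e-06). COL6A3 (Entrez gene 1293, chr2:237324003-237414375, minus strand), the longest type VI chain, had 358, 275, 267 and 399 in MPP-treated 3D and 189, 205, 236 and 198 in untreated 3D. It had 586, 711, 768 and 907 in MPP-treated 2D and 513, 579.8, 426 and 629 in untreated 2D. All scaffold libraries were below all dish libraries (untreated: limma, log2 -1.36, SE 0.16, adjusted p = 2.85e-07). COL8A2, a short-chain collagen of the corneal basement membrane, was also lower, at 424 ± 33.5 in untreated 3D and 623 ± 58.7 in untreated 2D (limma, log2 -0.55, adjusted p = 2.93e-04).

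Among the abundant basement membrane chains the rises were smaller. COL4A2 averaged 4612 ± 779.9 in untreated 3D and 2348 ± 208 in untreated 2D (limma, log2 0.96, SE 0.10, adjusted p = 6.78e-08), and its partner COL4A1 averaged 564 ± 113 and 384 ± 32.9 in the same groups (limma, log2 0.53, SE 0.14, adjusted p = 0.00338). COL18A1 rose by log2 0.63 and COL7A1, the chain of the anchoring fibrils below epithelia, by log2 0.65. The call on COL7A1 was lost without untreated 2D replicate 1 (limma, adjusted p = 0.0643) or untreated 3D replicate 4 (0.0537). COL6A1, COL6A2 and COL26A1 were not called, with log2 changes of 0.14, 0.089 and -0.020. Reads of COL4A2 may include those of 2 short antisense genes, since the sources used here do not give the strand setting of the counting.

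With MPP present in both cultures, the scaffold had 8 chains higher and 10 lower than the dish, against 19.0% and 19.9% of all tested genes called in these directions (38.9% either way). The median log2 change was -0.19 over the chains and 0.0088 over all genes. COL17A1 (log2 2.15), COL20A1 (2.33), COL16A1 (1.29), COL23A1 (1.10), COL3A1 (0.98), COL4A2 (0.65) and COL9A3 (0.55) were higher in this comparison as in the untreated one (limma, adjusted p of at most 4.02e-04). COL22A1, COL9A2, COL6A3 and COL8A2 were lower in both, at log2 -1.89, -1.26, -1.20 and -0.82 with MPP. COL5A1 was called higher in the untreated scaffold and lower in the treated one, at log2 1.27 and -0.29, and so was COL1A1, at 0.22 and -0.40. COL11A1, COL6A1, COL6A2 and COL26A1 were also lower, by -0.54, -0.19, -0.27 and -0.35, and the call on COL11A1 was lost without MPP-treated 3D replicate 4 (limma, adjusted p = 0.0644). That on COL6A1 was lost under 9 of the alternative settings. COL1A2 was also called higher, with 79.5, 12.5, 46.3 and 55.2 in MPP-treated 3D and 3.23, 8.09, 13.4 and 1.76 in MPP-treated 2D (limma, log2 2.72, SE 0.62, adjusted p = 0.00138).

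In the scaffold, MPP lowered 12 of the 33 tested chains and raised 3, where 34.6% of all tested genes were called, 17.6% lower and 17.0% higher. The median log2 change was -0.20 over the chains and 0.0033 over all genes. COL17A1 averaged 5914 ± 318 with MPP and 20021 ± 3074 without (limma, log2 -1.75, SE 0.095, adjusted p = 3.07e-12), a level still 4.43-fold that of MPP-treated 2D. COL5A1 averaged 2011 ± 126 and 6354 ± 337 in these groups (limma, log2 -1.66, SE 0.072, adjusted p = 5.87e-14), COL27A1 179 ± 21.0 and 586 ± 117 (limma, log2 -1.69, SE 0.21, adjusted p = 1.31e-06) and COL20A1 116 ± 18.3 and 325 ± 119 (limma, log2 -1.42, SE 0.31, adjusted p = 9.48e-04). The other chains that fell were COL23A1 (log2 -1.11), COL11A1 (-1.14), COL1A1 (-0.96), COL16A1 (-0.67), COL3A1 (-0.58), COL18A1 (-0.51), COL4A1 (-0.48) and COL4A2 (-0.34). For COL16A1, untreated 3D libraries 2 and 3, at 2351 and 2154, lay near or within the 1649 to 2346 of MPP-treated 3D. Libraries 1 and 4 stood clear of that range, at 4939 and 4073. COL4A2 lost its call with libraries scaled to equal totals (limma, adjusted p = 0.0569).

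The 3 chains that rose with MPP in the scaffold were COL22A1 (log2 0.77, adjusted p = 0.00468), COL6A3 (0.63, 0.00322) and COL8A2 (0.45, 0.00316) by limma. The same 3 chains rose with MPP on the dish, in libraries that share no sample with these. They were 9.09% of the tested chains, and 8.10% of all tested genes rose in both cultures. The dish call on COL6A3 was lost without untreated 2D replicate 1 or 3 or MPP-treated 2D replicate 3 or 4 (limma, adjusted p up to 0.100). In all, 11 chains were higher in untreated 3D than in untreated 2D and lower in MPP-treated than in untreated 3D. They were 33.3% of the tested chains, and 7.22% of all tested genes had this pattern. The 2 comparisons share the untreated 3D libraries, so a high or low value there enters both. The abundant COL6A1 and COL6A2 were not called in the scaffold, at log2 -0.13 and -0.11.

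On the dish, MPP raised 9 chains and lowered 2, where 34.5% of all tested genes were called, 17.7% higher and 16.9% lower. With equal totals of nuclear genes the split was 5 and 4, and with quantile normalisation 8 and 4. Of all genes called, 42.4% and 49.6% were higher under these settings in turn, against 51.1% in the main fit. The median log2 change was 0.052 over the chains and 0.020 over all genes. COL22A1 averaged 331 ± 52.0 with MPP and 157 ± 27.5 without (limma, log2 1.07, SE 0.20, adjusted p = 2.79e-04) and COL8A2 1019.7 ± 82.7 and 623 ± 58.7 (limma, log2 0.71, SE 0.11, adjusted p = 3.28e-05). COL9A2 (log2 0.49), COL6A3 (0.47), COL7A1 (0.54), COL9A3 (0.32), COL26A1 (0.27), COL6A2 (0.24) and COL6A1 (0.20) rose less. COL3A1 fell to 265 ± 51.9 with MPP, against 392 ± 31.4 without (limma, log2 -0.58, SE 0.14, adjusted p = 0.00248), and COL1A1 to 2249.5 ± 39.3, against 2854 ± 119 (limma, log2 -0.34, SE 0.082, adjusted p = 0.00257).

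Several dish calls depended on the settings. COL7A1 lost its call under 11 of the 30 alternatives, edgeR and DESeq2 among them, and COL6A1, COL26A1 and COL9A3 under 10, 8 and 5. Their adjusted p reached 0.183 for COL7A1 and 0.0920 for COL9A3, without untreated 2D replicate 1 and without MPP-treated 2D replicate 3 in turn (limma). Only 4 chains were called higher on the dish without untreated 2D replicate 1 or without MPP-treated 2D replicate 3, and 5 higher and 4 lower without MPP-treated 2D replicate 2. Over all tested genes these fits called 2584, 2557 and 2444 higher in turn, against 2998, and 2390, 2444 and 2327 lower, against 2868. The GC measure described above was -0.066 to 0.17 in the MPP-treated 2D libraries, all above the -0.14 to -0.071 of untreated 2D. After GC correction COL6A1, COL6A2 and COL26A1 were no longer called by limma (adjusted p = 0.306, 0.166 and 0.129), and COL17A1 and COL20A1 were called lower (0.00839 and 0.0225). Without the correction limma called neither, at log2 -0.24 (adjusted p = 0.0529) and -0.78 (0.0523).

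The change with MPP differed between scaffold and dish for 13 chains by limma's test of the difference, 12 with a lower and 1 with a higher change in 3D. Over all tested genes 15.3% were called, 8.32% lower and 7.00% higher. The median difference was -0.36 over the chains and -0.019 over all genes. The difference was log2 -2.01 for COL27A1 (SE 0.29, adjusted p = 3.08e-05), -1.56 for COL5A1 (SE 0.10, adjusted p = 2.59e-10), -1.51 for COL17A1 (SE 0.13, adjusted p = 4.56e-08) and -1.06 for COL23A1 (SE 0.19, adjusted p = 3.43e-04). COL11A1, COL18A1 and COL1A1 followed, at -0.87, -0.64 and -0.62. All 3 transmembrane chains were among the 12, though COL13A1 (log2 -3.36, adjusted p = 0.0309) rests on means of 5.68, 20.2, 10.8 and 4.25 in MPP-treated 3D, untreated 3D, MPP-treated 2D and untreated 2D. Its call was lost under 10 of the alternative settings.

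**Figure D4:**
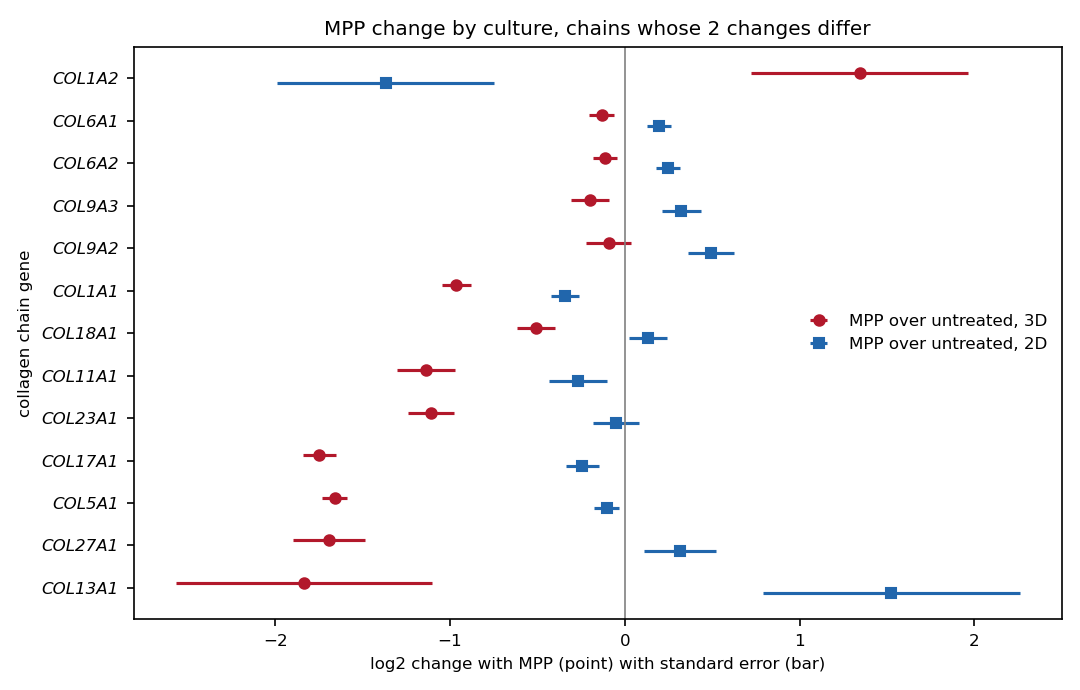
Log2 change with MPP over untreated (horizontal axis, limma, bars are standard errors) in 3D (circles) and in 2D (squares) for the 13 chains (rows) whose changes differed. COL27A1, COL5A1, COL17A1 and COL23A1 lie between -1.75 and -1.11 in 3D and between -0.24 and 0.32 in 2D.

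For COL6A1 and COL6A2 the difference came from small changes of opposite sign, at -0.13 and -0.11 in 3D and 0.20 and 0.24 in 2D. Neither was called after GC correction (limma, adjusted p = 0.0987 and 0.277). COL9A2 and COL9A3 rose on the dish and were not called in the scaffold, and their differences of -0.59 and -0.52 lost their call with equal totals of nuclear genes (0.0877 and 0.0772), 1 of the 10 and 8 settings under which they did. COL1A2, the 1 chain with a higher change in 3D (log2 2.71, adjusted p = 0.0394), has a mean of at most 48.4 in any group, that of MPP-treated 3D, and lost its call without each of 10 libraries in turn. COL20A1 and COL16A1 fell with MPP in 3D, but the difference from 2D was not called, at log2 -0.64 (adjusted p = 0.363) and -0.72 (0.0750).

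Over the 4 pairwise comparisons, 5 chains were called in all (COL8A2, COL1A1, COL3A1, COL6A3 and COL22A1) and 9 in none. These were 15.2% and 27.3% of the tested chains, and 6.92% and 26.7% of all tested genes were called as often. The 9 were COL2A1, COL5A3, COL5A2, COL4A4, COL6A6, COL21A1, COL19A1, COL28A1 and COL14A1, of which only COL2A1, COL5A2 and COL19A1 averaged 50 or more over the 16 libraries. Some chains lie side by side in the genome. COL3A1 and COL5A2 lie 19.15 kb apart on chromosome 2, pointing toward each other, and had log2 changes of 0.98 and 0.34 in the untreated scaffold. COL19A1 and COL9A1, 5.085 kb apart on chromosome 6, stood at -1.01 and -0.65 there. COL5A2 and COL19A1 did not pass the test.

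Genes for modifying, folding and exporting collagen chains were compared as a list of 22. In the untreated scaffold 15 rose and 1 fell, where 23.2% of all tested genes were called higher and 23.0% lower, with a median log2 change of 0.53, against 0.010 over all tested genes. With MPP in both cultures 13 were higher in the scaffold and 0 lower at a median of 0.45, where 19.0% of all tested genes were higher and 19.9% lower. P4HA1, a catalytic subunit of collagen prolyl 4-hydroxylase, had 1939.5, 1469, 1579.7 and 1628 in MPP-treated 3D, 4999, 6062, 7637 and 4785 in untreated 3D, 1001, 915, 859 and 1016 in MPP-treated 2D and 1202, 1233, 1260.5 and 1097 in untreated 2D. Every untreated 3D library was above every other (3D against 2D, untreated: limma, log2 2.27, SE 0.12, adjusted p = 4.13e-13). COLGALT2, which adds galactose to hydroxylysine, averaged 648 ± 95.9 in untreated 3D and 171 ± 46.7 in untreated 2D (limma, log2 1.94, SE 0.16, adjusted p = 2.05e-09). The prolyl 3-hydroxylase family genes P3H1 and P3H3 rose by log2 1.09 and 1.03.

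With MPP in the scaffold 8 of these 22 genes fell and 5 rose, where 17.6% and 17.0% of all tested genes did, at a median of -0.063 (0.0033 over all tested genes). P4HA1 averaged 1654 ± 202 with MPP and 5871 ± 1304 without (limma, log2 -1.81, SE 0.12, adjusted p = 4.92e-11). PLOD1, a lysyl hydroxylase, averaged 7393 ± 495 and 14395 ± 842 in these groups (limma, log2 -0.96, SE 0.064, adjusted p = 9.31e-11). MIA2, of the machinery that exports large cargo from the endoplasmic reticulum, rose by log2 0.72. On the dish 7 rose and 4 fell, where 17.7% and 16.9% of all tested genes did, at a median of 0.077 (0.020 over all tested genes). COLGALT2 and the collagen chaperone SERPINH1 were among those that rose (log2 0.93 and 0.42), and PLOD1 and the prolyl isomerase PPIB were among those that fell (-0.67 and -0.50). The change with MPP differed between cultures for 5 genes, all lower in 3D, where 8.32% of all tested genes were called lower, by log2 -1.47 for P4HA1 and -0.97 for COLGALT2.

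**Figure D5:**
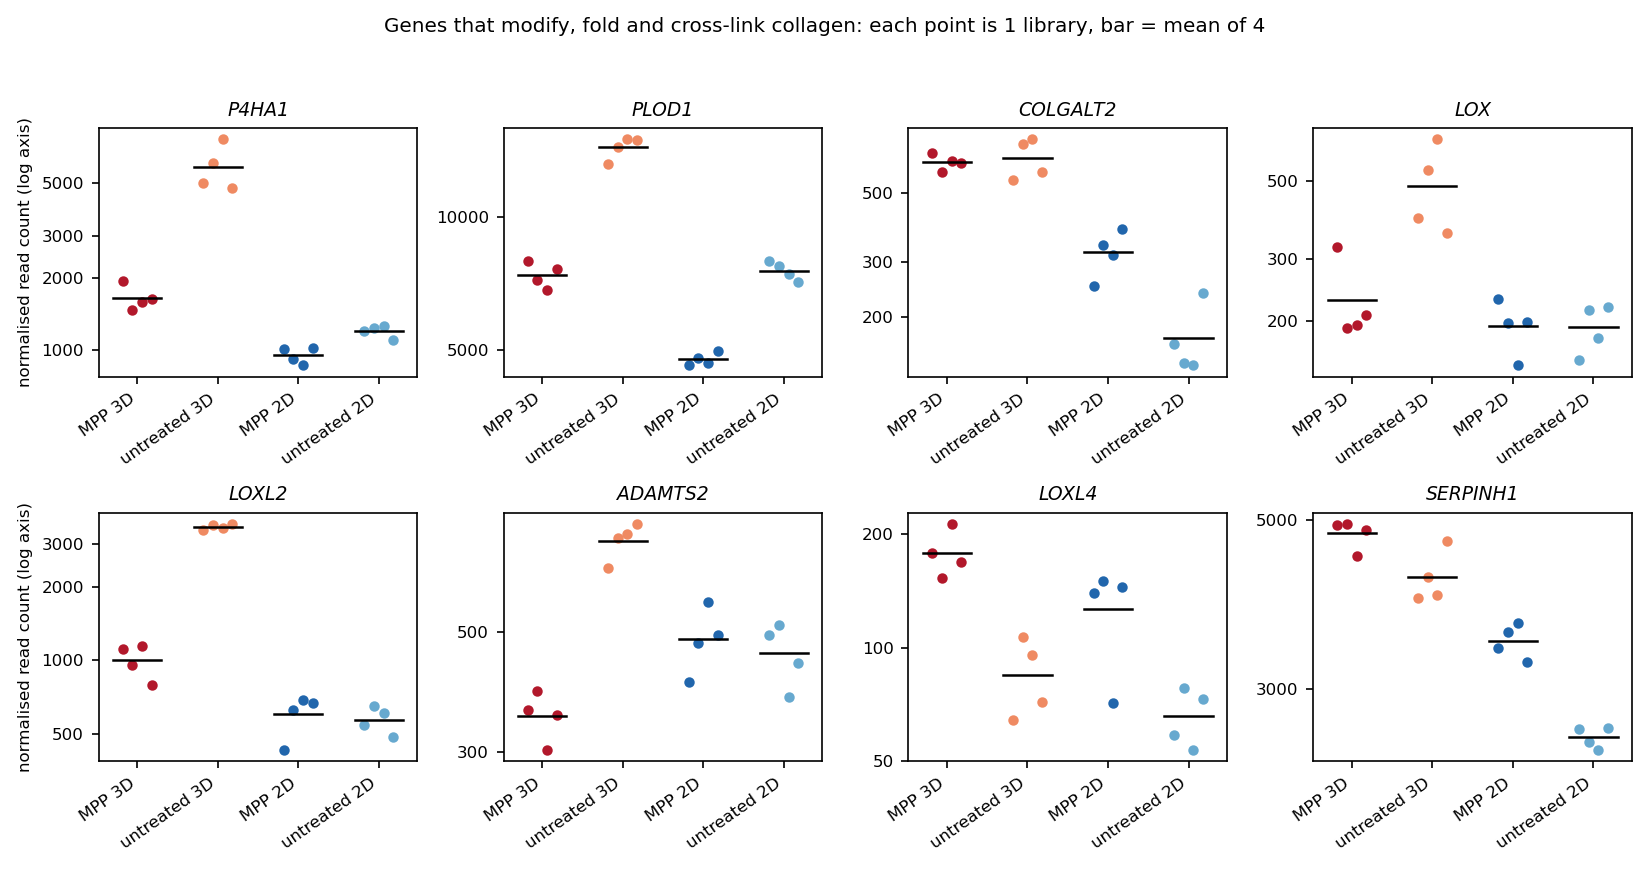
Normalised read count (vertical axis, log scale) of genes that modify, fold and cross-link collagen, in MPP-treated 3D, untreated 3D, MPP-treated 2D and untreated 2D. Each point is 1 library and the bar is the mean of 4; untreated 3D stands above all other libraries for P4HA1, PLOD1, LOXL2, LOX and ADAMTS2.

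Of 13 tested genes for processing and cross-linking outside the cell, 6 rose and 3 fell in the untreated scaffold (median log2 0.34), where 23.2% of all tested genes rose and 23.0% fell. LOXL2, a lysyl oxidase that cross-links collagen, had 1114, 955, 1146 and 794 in MPP-treated 3D, 3437, 3616, 3516 and 3636 in untreated 3D, 428, 624, 688 and 670.5 in MPP-treated 2D and 541, 653, 605 and 487 in untreated 2D. All untreated 3D libraries lay above all others (untreated 3D against 2D: limma, log2 2.64, SE 0.13, adjusted p = 3.92e-13). LOX rose by log2 1.31, and ADAMTS3, a procollagen protease, and TLL2, a tolloid protease, fell by 1.22 and 1.03 on the log2 scale. With MPP in the scaffold 9 of the 13 fell and 2 rose (median log2 -0.48), where 17.6% of all tested genes fell and 17.0% rose. The changes were log2 -1.84 for LOXL2, -1.07 for LOX, -1.07 for the procollagen protease ADAMTS2 and 1.09 for LOXL4. The change with MPP was lower in 3D than in 2D for 5 of the 13 and higher for 0 at an adjusted p under 0.05, where 8.32% and 7.00% of all tested genes were so called.

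The other collagen-linked lists moved both ways in the untreated scaffold, where 23.2% of all tested genes rose and 23.0% fell. Of 16 genes for collagen degradation and its inhibitors, called the degradation list below, 5 rose and 4 fell (median log2 -0.089). The membrane protease MMP16 and the gelatinase MMP2 fell by 1.06 and 0.83 on the log2 scale. MMP17 and the cathepsin CTSB rose by 0.87 and 0.75. Of 7 collagen receptors 2 rose and 3 fell (median log2 -0.20), the integrin subunit ITGA1 at log2 -0.997 and ITGA2 at 0.78. Of 10 basement membrane partners 2 rose and 6 fell (median log2 -0.51), NID2, a nidogen that links type IV collagen to laminin, at 0.84 and FRAS1, of the epithelial basement membrane, at -1.74. Of 12 collagen-binding matrix genes 1 rose, PRELP at log2 1.46, and 3 fell, LUM and FN1 at -1.36 and -0.64 among them. Of 14 genes of the TGF-beta pathway, which drives collagen synthesis in many cell types, 1 rose and 6 fell (median log2 -0.26). The riser was the ligand TGFB1, at 4439 ± 372 in untreated 3D and 2019 ± 135 in untreated 2D (limma, log2 1.14, SE 0.070, adjusted p = 1.30e-11).

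With MPP in the scaffold, the degradation list moved both ways, 6 higher and 4 lower (median log2 0.16), with the inhibitor TIMP2 at log2 0.88. Of all tested genes 17.0% were higher and 17.6% lower. Receptors had 3 higher and 1 lower (median log2 0.41), ITGA2 being the lower one at -0.67. Basement membrane partners had 1 higher and 3 lower (0.047), collagen-binding genes 2 and 3 (0.21) and TGF-beta genes 2 and 2 (0.043). On the dish the degradation list, which also holds inhibitors, had 8 higher and 1 lower (median log2 0.20). Of all tested genes 17.7% and 16.9% were so called. The membrane protease MMP14 rose by log2 0.68 and the collagen uptake receptor MRC2 by 0.66, and MMP16 fell by 1.16 on the log2 scale. Of the other dish counts, receptors had 1 higher and 0 lower, basement membrane partners 2 and 4, collagen-binding genes 2 and 1 and TGF-beta genes 4 and 2. With MPP in both cultures, the scaffold had 2 cross-linking genes higher and 5 lower than the dish. For the degradation list the counts were 3 and 8, and for receptors 1 and 2. Basement membrane partners had 3 and 4, collagen-binding genes 1 and 7 and TGF-beta genes 1 and 7. Of all tested genes 19.0% were higher and 19.9% lower in that comparison.

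Genes that work beside COL17A1 in epithelia were looked up after its values were seen. Of 8 hemidesmosome genes 1 rose and 4 fell in the untreated scaffold (median log2 -0.32), where 23.2% of all tested genes rose and 23.0% fell. The laminin chain LAMA3 fell by 0.81 on the log2 scale, a call lost under 7 of the 30 alternative settings. The integrin subunits ITGB4 and ITGA6 fell by 0.43 and 0.62 on the log2 scale and the laminin chain LAMB3 rose by 0.72. With MPP in the scaffold 2 of the 8 were higher, 0 were lower and 6 were not called. Of all tested genes 17.0% were higher and 17.6% lower. The 2 were ITGB4, at log2 0.93, and LAMB3, at 0.90, where COL17A1 fell by 1.75. Of the 3 proteases ADAM9, ADAM10 and ADAM17, which can release the COL17A1 ectodomain, ADAM9 was higher in the untreated scaffold, at log2 0.43, and 0 were lower, where 23.2% of all tested genes were higher and 23.0% lower.

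Other cell types that make matrix were checked by their markers. Of 6 tested fibroblast markers 1 was higher and 4 were lower in the untreated scaffold. Of all tested genes 23.2% were higher and 23.0% lower there. Over 7 markers MPP-treated 3D libraries summed to 7761–8639 normalised counts and untreated 3D libraries to 7658–8482. MPP-treated 2D libraries summed to 10498–12115 and untreated 2D libraries to 9996–10682. FAP averaged at most 4.63 in any group and DCN at most 39.7. The abundant markers PDGFRA, PDGFRB, THY1 and LUM averaged 2060, 3228, 1638 and 1073 in MPP-treated 3D, 2619, 2320, 2192 and 877 in untreated 3D, 2534, 3962, 2179 and 2379 in MPP-treated 2D and 2207, 2619, 3199 and 2235 in untreated 2D. Of 8 tested markers of the mesenchymal state of neuroblastoma 0 were higher and 3 lower in the untreated scaffold, beside the same all-gene shares. The list summed to 12384–15293 in MPP-treated 3D, 12365–16059 in untreated 3D, 17381–21110 in MPP-treated 2D and 15232–17641 in untreated 2D. Its transcription factor PRRX1 averaged 2.78 in MPP-treated 3D and had 0 reads in the other 3 groups, while VIM, TEAD1 and NOTCH2 each averaged 3831 to 6613 in every group. Glia markers summed to 790–1009 in MPP-treated 3D, 899–982 in untreated 3D, 882–1056 in MPP-treated 2D and 703–876 in untreated 2D, with SOX10 at 1.82 or less. The 4 endothelial markers summed to at most 31.4 in any library, and PECAM1 averaged at most 2.23. The part of these cell types in the collagen values was not tested.

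MPP-treated 3D libraries held 36554574–38414859 reads, untreated 3D libraries 24589435–34658873, MPP-treated 2D libraries 30399672–41813620 and untreated 2D libraries 34643854–46359070. A chain at a given normalised level therefore rests on fewest reads in untreated 3D.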

How the data were processed

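RNA from 16 SH-SY5Y libraries was sequenced after poly-A selection. The deposited values are 1 signal per gene and library, gene counts divided by a size factor by the authors. The tools named, per the submitters' processing notes, are DESeq2, featureCounts, STAR, FastQC and CASAVA 1.8.2, and the build is GRCh38.p13. The sources used here do not give the strand setting of the counting. The smallest positive value of each library was taken as its value of 1 read, and 100% of the values came out whole within a tolerance of 0.01 reads.

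Values were analysed as log2(value + 1) with limma-trend (limma 3.58.1, R 4.3.3). A gene was tested where 4 or more libraries reached a value of 10. All 4 groups of 4 entered 1 fit, tests were two-sided, and p-values were Benjamini-Hochberg adjusted over 16984 genes, with calls at an adjusted p under 0.05. The pseudocount of 1 shrinks the fold changes of weakly expressed genes. Every adjusted p here is from this fit or its named alternative, refitted over all genes. The test was tried on simulated data with 200 changed genes. limma stayed the main test, as planned for deposited normalised values; edgeR 4.0.16 and DESeq2 1.42.0 on the recovered reads were alternatives.

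The collagen chains and all gene lists were chosen with earlier results of these data known. Values in every library were given for chains with a mean of 50 or more that were called with an absolute log2 change of 1 or more in any comparison (11 chains). From each other list up to 4 called genes with a mean of 50 or more were named per comparison, by size of change. The hemidesmosome and ADAM lists and the GC correction (20 bins of exon GC content, with a value for 94.9% of tested genes) were added after seeing the data. Gene positions, exon lengths and repeats come from GENCODE release 29, in which a Gly-X-Y run needed at least 6 triplets. Promoter windows come from RefSeq. Figures were drawn with matplotlib 3.10.9.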

Additional observations from a re-analysis of the deposited data

Results flagged for a closer look

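The change with MPP in 3D minus that in 2D passed limma's test of the difference for 13 chains, which are flagged because the 2 cultures differ under the same contrast. On the log2 scale the difference was -3.36 for COL13A1, -2.01 for COL27A1, -1.56 for COL5A1, -1.51 for COL17A1, -1.06 for COL23A1 and -0.87 for COL11A1. It was -0.64 for COL18A1, -0.62 for COL1A1, -0.59 for COL9A2, -0.52 for COL9A3, -0.36 for COL6A2 and -0.33 for COL6A1, and 2.71 for COL1A2.

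In 8 of 132 groups of 4 libraries (6.06%), 1 library lay far from the other 3, where chance flags about 1 in 20 groups. In MPP-treated 2D, replicate 4 had 2.64 normalised counts of COL13A1, against 12.9 to 14.4 in the others, 47.5 of COL2A1, against 93.4 to 100.2, and 15.0 of COL6A6, against 3.34 to 4.85. Replicate 2 of that group had 2609.7 of COL4A2, against 2177 to 2228, and 444 of COL23A1, against 304 to 325. Its replicate 3 had 2308 of COL1A1, against 2228 to 2231. In MPP-treated 3D, replicate 4 had 5438 of COL17A1, against 6033 to 6103. In untreated 3D, replicate 2 had 75.1 of COL19A1, against 13.7 to 23.9 in the others.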

How the results depend on the processing

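Across 165 collagen results and 30 alternative settings, 4696 of 4877 values stayed on their side of the threshold, 98 of them uncalled in both and of the other sign. Another 113 lost their call, 68 gained one and 0 called values changed sign. On the dish, 4 chains were called lower with MPP, in place of 2, under a mean filter of 50, with equal totals of nuclear genes, with quantile normalisation and after GC correction. With equal totals of nuclear genes 5 were called higher there, in place of 9. Over all tested genes that setting gave 2557 higher and 3472 lower, against 2998 and 2868. The 1 chain with a higher MPP change in 3D, COL1A2, was lost under the mean filter, which leaves it untested, and under edgeR with a replicate block, giving 0. Where the cause is not given, the cause was not tested.

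Leaving out 1 library at a time gave 12 to 15 higher and 4 to 7 lower chains in the untreated scaffold, 8 higher and 8 to 11 lower in the scaffold with MPP, 4 to 9 higher and 2 to 4 lower with MPP in 2D, 3 to 4 higher and 12 to 14 lower with MPP in 3D, and 0 to 1 higher and 8 to 16 lower for the difference.

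Equal library totals moved the all-gene median change with MPP to 0.12 in 2D and the higher share of calls to 70.3%, against 51.1%, and in 3D to 65.9%, against 49.0%. Equal totals of nuclear genes gave 38.3% in the untreated scaffold, against 50.2%, and 42.4% with MPP in 2D. They gave 59.3% with MPP in 3D and 66.9% for the difference, against 45.7%. By edgeR on the recovered reads 3935 genes were called higher and 3787 lower in the untreated scaffold, against 3932 and 3898 by limma.

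Libraries with the same replicate number deviated together little (r of -0.11 to 0.090 over 16 pairs, own number best in 6). Between MPP-treated 3D and MPP-treated 2D, numbers 1, 2 and 4 matched best, at r of 0.060, 0.082 and 0.075. Such small r cannot show whether the numbers pair the libraries. With the number as a replicate block, 14 higher and 5 lower chains were called in the untreated scaffold and 8 and 10 in the scaffold with MPP. MPP gave 8 and 2 in 2D and 3 and 12 in 3D, and the difference 1 and 12. Depth limits the 6 untested chains and those with a mean under 50.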
